A study of Mus musculus with 8 samples.

Results

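Of the 8459 chromatin loops that were listed for mouse embryonic stem (ES) cells, 7891 lay on chromosomes 1 to 19 with at most 3 Mb between the midpoints of their anchors. Described here are the 3529 of them (44.7%) that had no counterpart in newborn lens, called ES-only loops. They were chosen by the loop lists themselves: a loop was ES-only when neither the lens epithelium list nor the lens fiber list held a loop with both anchor midpoints within 25 kb. A loop had to pass a caller's thresholds to be listed, so absence from a lens list does not say that the contact was absent there, and the share of 44.7% is a description of that rule.

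Hi-C was performed on wild-type ES cells of the v6.5 line (male, of mixed strain background), grown without feeders and with LIF. It was also performed on lens epithelium and lens fiber cells dissected at postnatal day 0.5 from CD-1 mice, whose sex is not given. Each of the 3 cell types had 2 replicates, of about 2000000 ES cells or of material from 30 lenses, all fixed with 2.0% formaldehyde for 10 min. The authors merged the replicates into 1 loop list per cell type, which leaves no spread between replicates to test against. CTCF ChIP-seq was done on the same lens cell types, as 1 labelled sample each of 200 lenses. The methods of the study speak of replicates, and whether the peak lists pool them is not given in the sources used here. No CTCF list for ES cells was used here. Cell type, mouse strain and growth in culture or in tissue differ together between ES cells and lens and cannot be told apart. The lists hold no expression values, so the labelled cell types were not checked against marker genes, and read depths were not used here. Intervals in parentheses are 95% intervals for counting error only (Wilson for shares, Katz for ratios). Loops share anchors and are not replicates of a condition.

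Many loops form when the cohesin ring extrudes chromatin until it meets CTCF, a zinc finger protein bound to DNA, at both anchors. In ES cells another kind of long-range contact is known between CpG-rich promoters of developmental genes that are held silent by polycomb group proteins. Lens cells are differentiated cells, with PAX6, MEIS and SOX factors acting early and crystallin genes later. Polycomb proteins were not analysed here in either cell type.

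Strong ES-only loops were long and had a developmental transcription factor gene at an anchor more often than the others. The ratio of observed contacts to contacts expected from the surroundings of the loop (the donut-expected value of the caller, called the contact ratio below) was above 8 in 119 ES-only loops. Their medians were 24 observed and 2.06 expected contacts, against 59 and 21.6 for the other ES-only loops. Median expected contacts were 23.2 in ES-only loops up to 50 kb and 5.88 above 1 Mb. The length of the strong loops is therefore not independent of the ratio that chose them. A developmental regulator had a gene end at an anchor of 49 of these 119 (41.2%, 32.7 to 50.2%) and of 118 of the other 3410 (3.46%, 2.90 to 4.13%). In 6 of the 119 a listed regulator was at both anchors, and 70 had none. No lens CTCF peak lay at either anchor in 80 of the 119 (67.2%, 58.4 to 75.01%), against 1052 of the other 3410 (30.9%, 29.3 to 32.4%).

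Promoters at the anchors of some of these loops are shown because the loops join developmental genes at high ratios, with the dinucleotide CG in capitals. The sequences are the 250 bases before a RefSeq (GRCm38.p6) transcription start that lay inside an anchor of an ES-only loop, on the strand of the gene. Where several starts of a gene did so, the start with the lowest coordinate was taken. For Nkx2-2, Foxa2, Pax9 and Foxa1 this start lay within the gene and not at its outer end. These windows need not be the main promoter of the gene. Nkx2-2 (minus strand, chr2:147186403-147186652) and Foxa2 (minus strand, chr2:148045465-148045714) were joined by a loop with a contact ratio of 18.8. Pax9 (plus strand, chr12:56695221-56695470) and Foxa1 (minus strand, chr12:57546112-57546361) were joined by a loop with a ratio of 14.1. Mnx1 (minus strand, chr5:29478471-29478720) was joined to En2 with a ratio of 14.6 and to Shh with a ratio of 13.7. Mnx1 and Shh were not on the list of developmental regulators counted here.
Nkx2-2: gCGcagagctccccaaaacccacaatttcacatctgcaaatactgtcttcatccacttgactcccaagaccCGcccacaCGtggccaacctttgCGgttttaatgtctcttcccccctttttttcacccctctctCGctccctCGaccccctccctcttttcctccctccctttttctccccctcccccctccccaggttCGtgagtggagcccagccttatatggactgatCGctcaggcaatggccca
Foxa2: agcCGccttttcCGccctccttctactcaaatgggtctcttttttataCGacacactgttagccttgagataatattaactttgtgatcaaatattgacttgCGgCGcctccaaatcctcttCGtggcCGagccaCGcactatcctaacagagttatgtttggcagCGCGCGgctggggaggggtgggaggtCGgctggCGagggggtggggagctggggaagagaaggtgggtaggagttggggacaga
Pax9: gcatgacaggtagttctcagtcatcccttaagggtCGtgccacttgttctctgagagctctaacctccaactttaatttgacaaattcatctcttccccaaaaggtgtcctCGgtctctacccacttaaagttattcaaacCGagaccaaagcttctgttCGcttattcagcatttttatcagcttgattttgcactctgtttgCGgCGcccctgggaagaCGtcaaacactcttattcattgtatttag
Foxa1: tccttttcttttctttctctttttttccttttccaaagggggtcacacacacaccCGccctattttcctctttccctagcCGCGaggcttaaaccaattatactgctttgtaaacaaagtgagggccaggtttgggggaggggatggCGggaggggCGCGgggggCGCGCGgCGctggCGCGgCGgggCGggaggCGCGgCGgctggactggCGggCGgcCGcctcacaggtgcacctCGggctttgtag
Mnx1: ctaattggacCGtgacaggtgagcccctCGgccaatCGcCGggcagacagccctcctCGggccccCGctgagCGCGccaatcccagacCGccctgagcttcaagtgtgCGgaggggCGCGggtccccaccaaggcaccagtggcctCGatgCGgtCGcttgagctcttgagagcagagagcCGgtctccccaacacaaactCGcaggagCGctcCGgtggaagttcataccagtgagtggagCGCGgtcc
The number of CG dinucleotides in these 250 bases was 8 for Nkx2-2, 13 for Foxa2, 7 for Pax9, 21 for Foxa1 and 21 for Mnx1. Over the 31396 tabled starts of chromosomes 1 to 19 the median was 6 (quartiles 2 and 16). It was 8 for the 1344 starts inside an anchor of a loop that was also in both lens lists, 11 for the 2146 inside an anchor of an ES-only loop, and 15 (quartiles 10 and 21.3) for the 172 at an ES-only loop with a ratio above 8. At least 10 CG dinucleotides were held by 38.3% of all starts, by 46.8% (44.1 to 49.5%) at loops in both lens lists, by 54.5% (52.4 to 56.6%) at ES-only loops and by 77.9% (71.1 to 83.5%) at the strong ES-only loops. The letters CCCTC, a part of many CTCF sites, were searched on both strands (CCCTC or GAGGG). They occurred in 60.9% of all 250-base windows, in 68.1% (66.1 to 70.1%) at ES-only loops, in 67.6% (65.1 to 70.1%) at loops in both lens lists and in 84.9% (78.8 to 89.5%) at the strong ES-only loops. Such short letters occur often, so a match is a description and not a site. Several starts of 1 gene are counted separately.

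The 10 ES-only loops with the largest contact ratios spanned 765 to 2990 kb and rested on 14 to 52 observed contacts, with 0.589 to 2.39 expected. Because the expected values were this small, their ratios carry a wide counting error. The largest ratio, 41.1, was at a loop of 1410 kb on chromosome 7 (52 contacts against 1.27 expected, 6 merged pixels), with an anchor over Nap1l4, which encodes a histone chaperone, and no gene at the other anchor. A loop of 1735 kb ran from beside the Dlx1 and Dlx2 homeobox genes to Sp9, a zinc finger gene of forebrain interneurons, with 15 contacts against 0.589 (ratio 25.5). These are the extremes of the list, and both loops linked places in different ES TADs.
The next, on chromosome 8, ended in Cacna1a, a calcium channel gene, over 795 kb (26 contacts, ratio 23.9). Ebf2 and Egr3, transcription factor genes on chromosome 14, were joined over 2845 kb by 14 contacts (ratio 21.8). Meis1 and Otx1, homeobox genes on chromosome 11, were joined over 2990 kb, just inside the size limit, by 29 contacts against 1.37 (ratio 21.1). All 3 had no lens CTCF peak at either anchor.
Tbx3, a T-box gene that ES cells express, and Lhx5, a LIM homeobox gene, were joined over 765 kb by 40 contacts against 1.90 (ratio 21.0), in a loop merged from 12 pixels. Lhx1, a LIM homeobox gene of head and kidney, and Tbx2, the T-box neighbour of Tbx4, were joined over 1315 kb (29 contacts, ratio 19.7). The Nkx2-2 to Foxa2 loop, between a ventral neural tube gene and a floor plate and endoderm gene, spanned 860 kb (45 contacts against 2.39, ratio 18.8, 9 pixels). Each of these 3 loops had both anchors within 25 kb of an anchor of some lens loop, with no lens loop joining them.
Wnt5a, the ligand of non-canonical Wnt signalling, was joined to the calcium channel gene Cacna2d3 over 1215 kb (18 contacts, ratio 17.9). The tenth ran over 1000 kb to Smarca2, which encodes an ATPase of the chromatin remodelling complex BAF (29 contacts, ratio 17.3). None of the 10 had a lens CTCF peak at both anchors, and 3 had such a peak at 1 anchor.

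**Figure D1:**
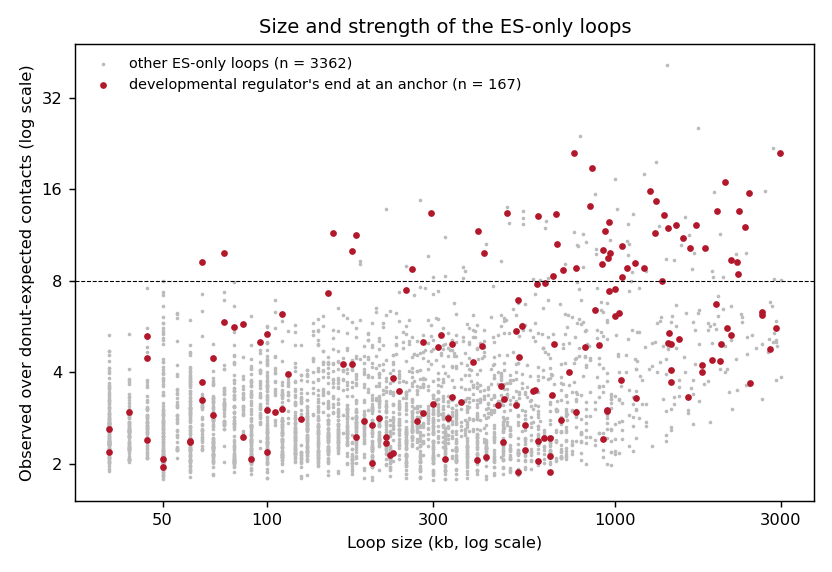
Each point is 1 of the 3529 ES-only loops, with its size in kb and its ratio of observed to donut-expected contacts, both on log axes, and a dashed line at a ratio of 8. The 167 loops with a developmental regulator's gene end at an anchor (red) reach the upper right, where loops are long and ratios high, while most other loops (grey) lie below a ratio of 4.

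Developmental regulators were counted with a list of 195 genes on chromosomes 1 to 19 (Hox, Pax, Lhx, Dlx, Irx, Nkx, Tbx, Gata, Fox, Sox, Meis, Msx and like families). An end of the gene lay inside an anchor of an ES-only loop for 111 of them (56.9%, 49.9 to 63.7%), whereas 11.3% of all 20665 protein-coding genes had one. At loops in both lens lists the count was 48 of 195 (24.6%, 19.1 to 31.1%), against 7.24% of all protein-coding genes. Of the 195 genes, 79 were at ES-only loops and at no loop in both lens lists, 16 were the reverse, and 32 were at both. Counted by loops, 167 of the 3529 ES-only loops (4.73%, 4.08 to 5.48%) and 49 of the 3289 loops in both lens lists (1.49%, 1.13 to 1.964%) touched a listed gene, with 2.88% among all 7891 ES loops and a ratio of shares of 3.18 (2.32 to 4.35). The share was higher in the ES-only loops on 18 of 19 chromosomes, and on chromosome 18 neither class touched a listed gene. At contact ratios up to 3 the classes were close. The shares were 2.00% against 1.85% up to 2, 2.24% against 1.88% at 2 to 2.5 and 1.95% against 1.77% at 2.5 to 3. They were 2.99% against 1.21% at 3 to 4 and 7.02% against 0.899% at 4 to 5.

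Loops with a developmental regulator were longer and stronger than the rest of the ES-only loops. Their median size was 600 kb, against 190 kb for the other 3362, and their median contact ratio 4.95 against 2.74. Median observed contacts were 36 against 59. A lens CTCF peak was absent from both anchors in 89 of the 167 (53.3%, 45.7 to 60.7%) and in 1043 of the other 3362 (31.0%, 29.5 to 32.6%). Among the 49 loops in both lens lists that touched a listed gene, only 4 (8.16%, 3.22 to 19.2%) lacked lens CTCF at both anchors.

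In 21 ES-only loops a listed gene ended at both anchors, and in 1 loop of the class in both lens lists. The strongest after Meis1 to Otx1 were Nkx2-4 to Foxa2 (960 kb, 28 contacts, ratio 12.5) and Msx2 to Pitx1 (2360 kb, 26 contacts, ratio 12.05), where the second pair are homeobox genes of limb and face. Chromosome 12 held 3 of these loops, and a further loop with an anchor inside Pax9 rather than at its end, among neighbouring genes of ventral foregut and neural tube. Nkx2-1, the regulator of lung, thyroid and ventral forebrain, was joined to Pax9 over 155 kb by 90 contacts against 7.87 (ratio 11.4, 16 pixels) and to Nkx2-9 over 75 kb by 73 contacts (ratio 5.85). Foxa1, a pioneer factor of endoderm, was joined to Pax9 over 850 kb (53 contacts, ratio 14.1) and to Nkx2-9 over 935 kb (26 contacts, ratio 11.6).
On chromosome 13, 3 forkhead genes were joined in every combination. Foxf2 and Foxc1 were joined over 180 kb with 46 contacts (ratio 11.3), Foxq1 and Foxc1 over 250 kb with 18 contacts (ratio 7.45), and Foxq1 and Foxf2 over 70 kb with 61 contacts (ratio 4.46). Within the Hox clusters, which pattern the body axis, 6 loops of 35 to 65 kb joined Hox genes of 1 cluster with lower ratios, from 1.95 for Hoxc13 to Hoxc9 and Hoxc10 up to 3.71 for Hoxa3 to Hoxa10.

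**Figure D2:**
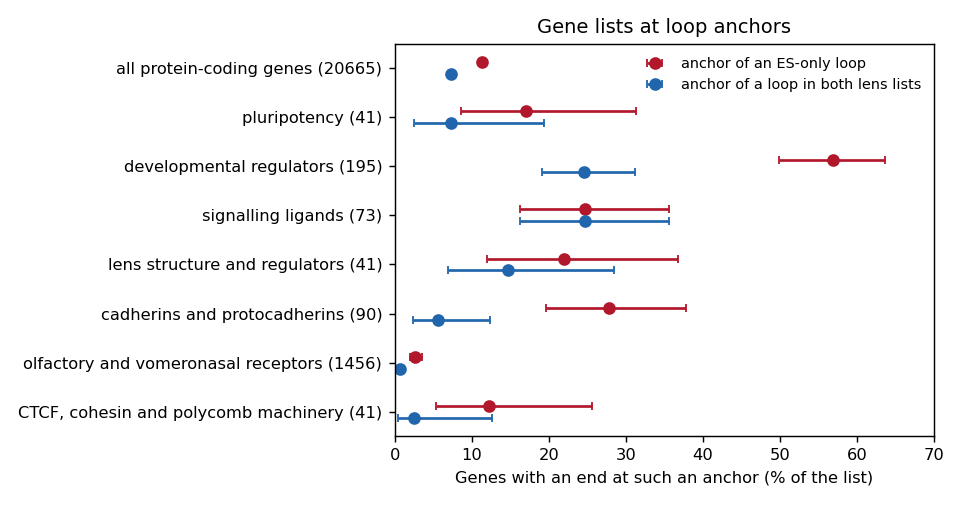
For each gene list (number of genes in parentheses) the points give the share of its genes, in percent, with a gene end inside an anchor of an ES-only loop (red) or of an ES loop found in both lens lists (blue), with 95% Wilson intervals. Developmental regulators stand at 56.9% and 24.6%, cadherins and protocadherins at 27.8% and 5.56%, and signalling ligands at 24.7% in both. All protein-coding genes stand at 11.3% and 7.24%.

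The other lists gave smaller counts. Of 41 pluripotency genes, 7 had an end at an ES-only anchor (17.1%, 8.53 to 31.3%), an interval that holds the 11.3% of all protein-coding genes. At loops in both lens lists 3 had one (7.32%), against 7.24% of all protein-coding genes. Tbx3 is on this list too, with 5 ES-only loops. Sox2, a core pluripotency factor, lay at an ES-only loop of 110 kb to a place with no protein-coding gene (50 contacts against 8.04, ratio 6.22, no lens CTCF at either anchor), beside a loop of 840 kb found in both lens lists and a loop of 475 kb found in the epithelium list alone. Fgf5, a marker of primed cells, was joined over 80 kb to Prdm8 (ratio 4.27).
Mycn, a proto-oncogene active in ES cells, lay at a loop of 155 kb (ratio 4.25), Trim28, a corepressor of retroelements, at one of 2900 kb (ratio 3.76) and Otx2 at one of 550 kb to Peli2 (ratio 2.68). No ES loop up to 3 Mb had an anchor over Nanog or Esrrb, although Esrrb lay under an anchor of 2 epithelium loops and 1 fiber loop.

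Of 73 signalling ligand genes, 18 were at ES-only loops and 18 at loops in both lens lists (24.7%, 16.2 to 35.6%, in each), with 3 genes in common, against 11.3% and 7.24% of all protein-coding genes. The strongest were Fgf9, joined to the Hippo kinase gene Lats2 over 325 kb (19 contacts, ratio 11.1), and the Notch ligand gene Dll4, joined over 620 kb to an anchor with Ankrd63 and Plcb2 (ratio 6.51). On chromosome 15 the ligand genes Wnt1, Wnt10b and Dhh shared partners, with Wnt10b and Dhh each joined to Dnajc22 (320 kb, ratio 5.60, and 200 kb, ratio 5.79) and Wnt1 to Dhh over 105 kb (63 contacts, ratio 4.12).

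Of 41 genes for lens structure and regulators, 9 had an end at an ES-only anchor (22.0%, 12.003 to 36.7%) and 6 at a loop in both lens lists (14.6%, 6.88 to 28.4%), against 11.3% and 7.24% of all protein-coding genes. The leading ones were regulators that also work in other tissues. After Meis1 came Sox1, joined to Rab20 over 920 kb (14 contacts, ratio 9.10), and Prox1, a homeobox gene needed for fiber cell elongation, joined to Ptpn14 over 445 kb (25 contacts, ratio 7.68). Meis2 had a loop of 2650 kb (ratio 6.16), Foxe3, a forkhead gene of the lens epithelium, was joined to Trabd2b over 520 kb (ratio 5.45), and Six3, an eye field gene, to an anchor with Abcg5 and Abcg8 over 950 kb (ratio 2.97).
Prox1 and Foxe3 had no loop in either lens list with an anchor over a gene end, while Six3 had 3 in each.

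Cadherin and protocadherin genes, which encode adhesion proteins of the cell surface, were at ES-only anchors in 25 of 90 (27.8%, 19.6 to 37.8%) and at loops in both lens lists in 5 of 90 (5.56%, 2.40 to 12.4%). Over all protein-coding genes the shares were 11.3% and 7.24%, and the interval for loops in both lens lists holds the latter. The clustered protocadherins on chromosome 18 made up most of the leading genes, and neighbouring genes there share an anchor, so the genes are not separate observations. Pcdhb21 and Pcdhb22, at the same anchor, had 4 ES-only loops of 70 to 370 kb, the strongest with 35 contacts against 7.55 (ratio 4.63), and were joined to Pcdhga8 and Pcdhgb4 over 210 kb (92 contacts, ratio 3.23) and to Pcdhga5 over 180 kb (ratio 2.62). Outside the clusters Cdh22 had 3 loops, the strongest to Cd40 over 160 kb (ratio 2.51).

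Olfactory and vomeronasal receptor genes were seldom at anchors of either kind, 38 of 1456 (2.61%, 1.91 to 3.56%) for ES-only loops and 9 (0.618%, 0.326 to 1.17%) for loops in both lens lists. The shares of all protein-coding genes were 11.3% and 7.24%. Olfr1359 came first, at an anchor on chromosome 13 that also holds histone genes, and the partner anchor 2050 kb away holds the histone genes H1f1, H2ac4, H3c1, H3c2, H4c1 and H4c2 (36 contacts against 5.59, ratio 6.44). Vmn1r184 was joined to Vmn1r185 over 350 kb (ratio 6.19), Vmn1r172 to Vmn1r174 over 100 kb (ratio 5.00), and Vmn2r29 to Zfp78 over 925 kb (ratio 5.26). These genes are near copies of each other, so the placing of their reads is uncertain.
Of 41 genes for CTCF, cohesin and polycomb proteins, 5 were at ES-only anchors (12.2%, 5.32 to 25.5%), against 11.3% of all protein-coding genes. Cbx8, which encodes a subunit of polycomb repressive complex 1, was joined to Nptx1 over 510 kb (16 contacts, ratio 6.46). Rybp, for another subunit of that complex, had 3 loops (up to ratio 2.88), and the cohesin release factor gene Wapl and the polycomb gene Phc3 had 1 each (ratios 2.22 and 2.02).

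CTCF in lens was less frequent at ES-only loops. The rule did not use the peaks, but it used loops called in the same lens cell types. The comparison is therefore a description and is not independent of the rule. A CTCF peak of lens epithelium or lens fiber cells lay in both anchors of 877 of the 3529 ES-only loops (24.9%, 23.5 to 26.3%) and of 1635 of the 3289 loops in both lens lists (49.7%, 48.0 to 51.4%), with 37.3% among all 7891 ES loops. Peaks were absent from both anchors in 32.1% of the ES-only loops (30.6 to 33.6%) and in 10.1% of the loops in both lens lists (9.11 to 11.2%), with 20.5% among all. The ratio of the shares with peaks at both anchors was 0.4999 (0.468 to 0.534), and the share was lower in the ES-only loops on 19 of 19 chromosomes, between 18.2% on chromosome 12 and 31.6% on chromosome 11. Loops in 1 lens list lay between, with 37.8% (33.9 to 41.8%) for the epithelium list alone and 43.5% (39.2 to 47.9%) for the fiber list alone. CTCF in lens does not tell whether CTCF binds these anchors in ES cells.

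The difference was present at each anchor width, with peaks at both anchors in 22.4%, 24.1% and 29.4% of the ES-only loops and in 48.2%, 46.8% and 59.7% of the loops in both lens lists, for anchors of 5, 10 and 25 kb. Peak heights were close. Where an anchor held a peak of lens fiber cells, the median fold enrichment of its highest peak was 7.27 at ES-only loops and 7.68 at loops in both lens lists, and with peaks of lens epithelium it was 6.07 and 6.25. The fiber list held 23863 peaks and the epithelium list 16428, and 21.3% of the ES-only loops had a fiber peak at both anchors and 9.72% an epithelium peak.

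From a ratio of 3 the gap between both classes was wider at higher ratios up to 10, and narrower above 10. In the ES-only loops the share with no lens CTCF peak was 25.4% at contact ratios of 2 to 2.5, 37.5% at 4 to 5, 51.6% at 6 to 8, 72.9% at 8 to 10 and 63.4% above 10. In the loops found in both lens lists it was 10.6%, 6.83%, 7.86% and 6.25% over the same steps up to 10, and 54.2% (35.1 to 72.1%) in the 24 loops above 10. At ratios up to 2 the shares were 36.0% of 150 ES-only loops and 14.8% of 54 loops in both lens lists, so the rise was not steady. Conversely peaks at both anchors became rarer among ES-only loops, from 27.7% at ratios of 2 to 2.5 to 2.08% of the 48 loops at 8 to 10, and commoner among loops in both lens lists, from 48.0% to 71.9% of 32. At ratios up to 2 the values were 21.3% and 42.6%. Above 10 the values were 5.63% of 71 ES-only loops and 33.3% (18.0 to 53.3%) of the 24 loops in both lens lists. Of all 56 loops in both lens lists with a ratio above 8, 26.8% (17.0 to 39.6%) had no lens CTCF at either anchor, against 9.81% of the other 3233.
The same order was present in both size ranges looked at. In loops up to 500 kb, no lens CTCF was found in 28.6% of 2491 ES-only loops with a ratio up to 4, 38.2% of 364 from 4 to 8, and 73.1% (53.9 to 86.3%) of 26 above 8. Above 500 kb the values were 27.5% of 363, 52.6% of 192 and 65.6% (55.5 to 74.5%) of 93. Developmental regulators followed the same order, with 1.73%, 5.22% and 38.5% of the loops up to 500 kb and 6.61%, 16.7% and 41.9% of those above.

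**Figure D3:**
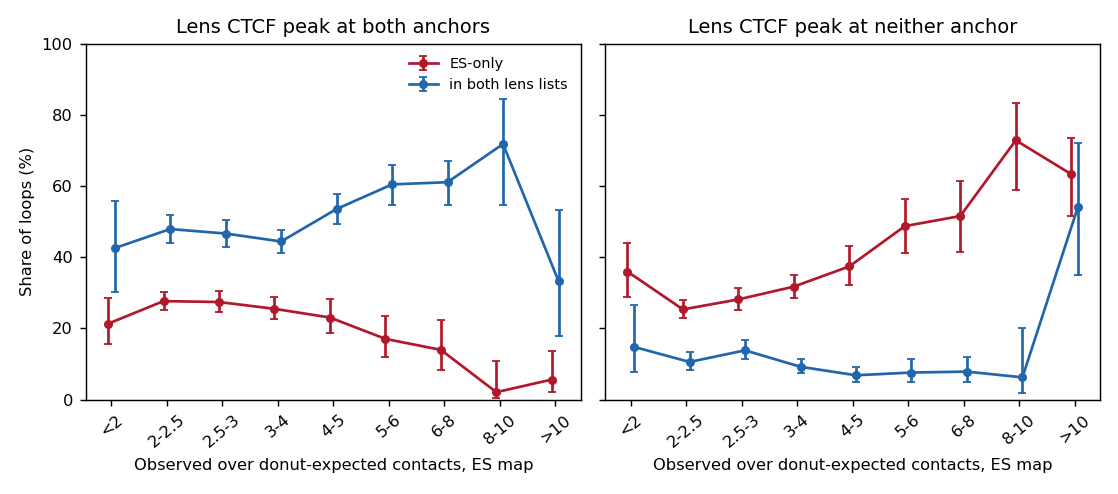
Share of loops, in percent with 95% Wilson intervals, that had a lens CTCF peak at both anchors (left) or at neither (right), by the ratio of observed to donut-expected contacts in the ES map, for ES-only loops (red) and ES loops in both lens lists (blue). At ratios of 8 to 10 the classes are farthest apart, with 2.08% against 71.9% on the left and 72.9% against 6.25% on the right.

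As a class, the ES-only loops were weaker in the ES map than the loops in both lens lists, apart from the strong group above. This strength bears on whether a loop is listed, so it is given as a description of the choice. At anchors of 5, 10 and 25 kb the median contact ratio was 3.39, 2.67 and 2.36, against 4.18, 2.91 and 2.39. The loop rested on 1 pixel in 49.8% of the ES-only loops and in 27.9% of the others. All 4 false discovery rates were below 0.01 in 80.1% and 84.7%. Median observed contacts were close, 58 against 56, and 190 of the 7891 ES loops (2.41%) had a ratio above 8, of which 119 were ES-only and 56 in both lens lists.

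The rule has 2 limits. The 140 ES-only loops just inside the first, whose nearest lens loop lay 25 to 30 kb away, had a median contact ratio of 2.75 and a median size of 180 kb. The 246 ES loops just outside, with a lens loop at 20 to 25 kb, had 2.46 and 330 kb. Over all ES-only loops the nearest lens loop lay at a median of 142.5 kb (quartiles 75 and 260 kb, the larger of the offsets of both anchors), and 71 had none within 1 Mb. At the limit of size, the 14 ES-only loops of 2825 to 3000 kb had a median ratio of 5.48, and the 6 ES loops of 3025 to 3150 kb on the same chromosomes had 12.3.

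The shortest and the longest ES loops were most often ES-only. The share was 72.5% (68.7 to 76.0%) of 567 loops up to 50 kb, 48.5% of 1283 from 50 to 100 kb, between 38.7% and 41.7% in each class from 100 kb to 1 Mb, 57.7% (51.9 to 63.4%) of 284 from 1 to 2 Mb and 93.3% (84.1 to 97.4%) of 60 from 2 to 3 Mb. The median size of the ES-only loops was 200 kb (quartiles 90 and 400 kb) and that of the loops in both lens lists 225 kb (125 and 405 kb). By chromosome the ES-only share ran from 38.3% on chromosome 12 to 51.5% on chromosome 5. Between 1 and 2 Mb the lens lists held more loops than the ES list, 487 for the epithelium and 526 for fiber cells against 284, and up to 50 kb they held fewer, 309 and 293 against 567.

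**Figure D4:**
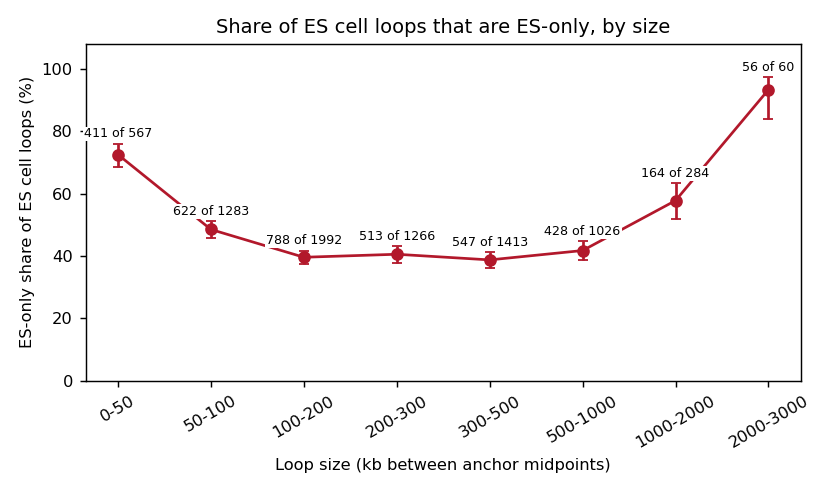
Share of ES cell loops up to 3 Mb on chromosomes 1 to 19 that were ES-only, in percent with 95% Wilson intervals, by the distance between anchor midpoints in kb, with the counts above each point. The share is high at both ends, 72.5% up to 50 kb and 93.3% from 2 to 3 Mb, and between 38.7% and 41.7% from 100 kb to 1 Mb.

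Short and long ES-only loops differed in what lay at their anchors. Up to 50 kb, no lens CTCF peak was found in 45.5% of the 411 ES-only loops and a gene end at both anchors in 18.5%, with a median contact ratio of 2.56. From 2 to 3 Mb, no lens CTCF peak was found in 53.6% of the 56 loops, a gene end at both anchors in 60.7%, a developmental regulator in 28.6% (18.4% at the lower bound), and the median ratio was 5.35. Between these, from 200 to 300 kb, the values for 513 loops were 25.1%, 21.8% and 2.73%, with a median ratio of 2.69. Size goes with anchor width, with median sizes of 90, 180 and 475 kb at anchors of 5, 10 and 25 kb. At these widths a gene end lay at both anchors in 18.3%, 24.2% and 39.3%, and no lens CTCF peak was found in 38.3%, 30.9% and 25.8%. The values by size are not split by width.

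The 4 longest ES-only loops spanned 2925 to 3000 kb. Besides Meis1 to Otx1, these joined an anchor with Fam8a1 and Nup153 to one with Iars and Nol8 on chromosome 13 (16 contacts against 1.99, ratio 8.03) and an anchor with Gdi2 and Tasor2 to one within Pitrm1, also on chromosome 13 (29 contacts, ratio 3.84). The remaining loop joined Prdm4 and Pwp1 to Utp20 on chromosome 10 (34 contacts, ratio 4.89). Nup153 encodes a nuclear pore protein, Iars a tRNA synthetase, Pwp1 and Utp20 ribosome assembly factors and Gdi2 a regulator of Rab proteins. None of the 4 had a lens CTCF peak at either anchor. The next 5 were tied at 2900 kb, the strongest of them on chromosome 14 without protein-coding genes (23 contacts, ratio 5.91), and 3 of these 5 had a lens CTCF peak at 1 or both anchors.

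Genes were more frequent at the anchors of ES-only loops. A gene end, of any kind in the gene table, lay at both anchors of 917 (25.98%, 24.6 to 27.5%) and of 471 of the loops in both lens lists (14.3%, 13.2 to 15.6%), with 20.6% among all ES loops and a ratio of 1.81 (1.64 to 2.01). With protein-coding genes alone the shares were 15.9% (14.7 to 17.1%) and 5.62% (4.89 to 6.47%). With genes of any kind the share was higher in the ES-only loops on 19 of 19 chromosomes and at each anchor width. It was 18.3% against 9.01% at 5 kb, 24.2% against 16.1% at 10 kb and 39.3% against 27.8% at 25 kb. The classes were close at contact ratios of 2 to 2.5 (25.99% against 24.6%) and 2.5 to 3 (21.6% against 19.3%). They were farther apart at 3 to 4 (23.4% against 11.2%) and 4 to 5 (23.7% against 8.81%). In loops up to 50 kb the shares were 18.5% and 18.4%, and from 100 to 200 kb 21.6% and 11.1%.

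Anchors of ES-only loops were compared with the anchors of all lens loops. Both anchors lay within 25 kb of an anchor of some lens loop in 927 ES-only loops (26.3%, 24.8 to 27.7%), 1 anchor in 1997 (56.6%) and neither in 605 (17.1%, 15.9 to 18.4%). Loops in a lens list have both by definition, so no comparison with them is made, and the share that arbitrary sites would give was not determined. Within 10 kb, both anchors matched in 14.5%. Lens CTCF was found at both anchors in 34.7% (31.7 to 37.9%) of the loops with both anchors in use, 23.0% (21.2 to 24.9%) of those with 1 and 15.7% (13.0 to 18.8%) of those with neither. Among the 119 strong loops, 56 (47.1%, 38.3 to 56.0%) had both anchors in use in lens, against 871 of the other 3410 (25.5%, 24.1 to 27.0%). With anchors of the ES loops in both lens lists in place of lens anchors, both matched in 246 (6.97%), 1 in 1556 (44.1%) and neither in 1727 (48.9%).

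Overlapping anchors of ES-only loops merged into 6026 sites. Of these, 5242 (87.0%) served 1 loop, 600 served 2, and 17 served 5 or 6. The site at Hmx1, a homeobox gene of eye and ear on chromosome 5, had 6 ES-only loops of 105 to 2430 kb with ratios of 2.78 to 15.6, the strongest to Msx1. Sites at Dlx1 and Dlx2, at Sp9, at Tbx3 and at Lhx1 had 5 each, with highest ratios of 25.5, 25.5, 21.0 and 19.7. Another 12 sites had 5 loops, among them Foxa2, whose 5 loops of 680 to 1820 kb all had a ratio of at least 8.80. With 1 strong loop kept for each anchor site 84 of the 119 were left, and a developmental regulator was at an anchor of 29.8% of these.

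TADs, regions whose parts contact each other more than their surroundings, were compared next. Both anchors lay in 1 ES TAD in 999 ES-only loops (28.3%, 26.8 to 29.8%) and 1249 loops in both lens lists (38.0%, 36.3 to 39.6%). They lay in different ES TADs in 5.72% and 3.10%, and outside every ES TAD in 39.6% and 34.1%. The anchors matched both ends of an ES TAD within 25 kb in 479 ES-only loops (13.6%, 12.5 to 14.7%) and in 1065 loops in both lens lists (32.4%, 30.8 to 34.0%), with 22.6% among all ES loops and a ratio of 0.419 (0.381 to 0.462). Ends of a lens epithelium TAD were matched by 2.24% and 22.9%, and ends of a lens fiber TAD by 3.71% and 32.4%. The lens TADs were called on the same maps as the lens loops that the rule used, so these last values are a description only. Of the 119 strong ES-only loops, 1 lay inside an ES TAD (0.840%, 0.148 to 4.61%), against 29.3% of the others, at median sizes of 960 and 190 kb.

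At single genes, ES-only loops could be set beside lens loops from the same gene. Shh, the ligand that patterns limb and ventral neural tube, lay at 2 ES-only loops, to En2, a homeobox gene of the midbrain, over 295 kb (75 contacts against 5.63, ratio 13.3) and to Mnx1, a motor neuron homeobox gene, over 1015 kb (24 contacts against 1.75, ratio 13.7). En2 and Mnx1 were also joined, over 1310 kb (32 contacts against 2.19, ratio 14.6). In the same interval Shh had ES loops of 575 kb (ratio 2.58) and 810 kb (ratio 3.33) that were in both lens lists, the longer with its far anchor in Lmbr1, which holds the limb enhancer of Shh. Their lens counterparts had anchor midpoints within 25 kb, and their anchors need not lie over the gene itself. In lens epithelium 1 loop had an anchor over Shh, of 840 kb and with its other anchor also in Lmbr1 (42 contacts, ratio 4.18). In fiber cells no loop had an anchor over Shh, although the fiber list held counterparts of both ES loops. No lens loop had an anchor over En2 or Mnx1.

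**Figure D5:**
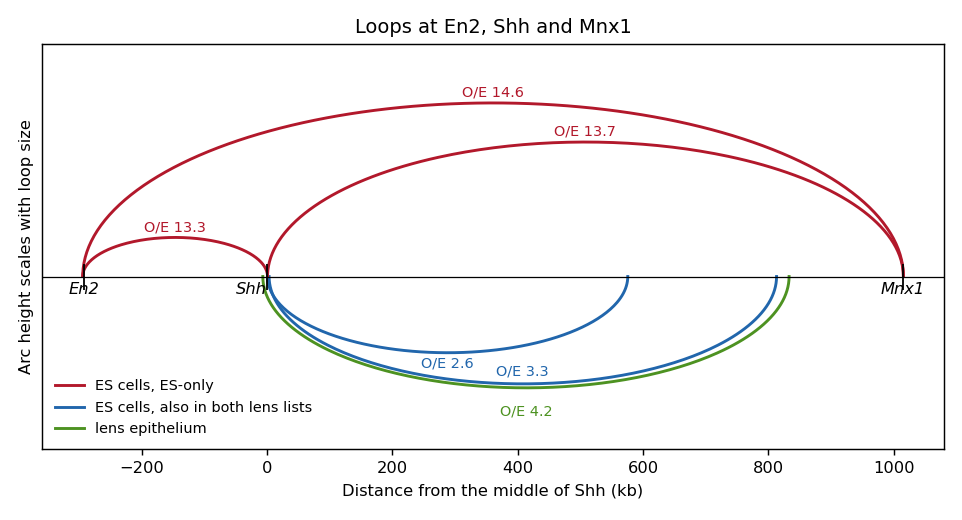
Loops with an anchor over En2, Shh or Mnx1, drawn as arcs along the distance from the middle of Shh in kb, with the ratio of observed to expected contacts (O/E) beside each. Lens counterparts whose anchors lay beside and not over these genes are not drawn. The 3 ES-only loops (red, above the line) join each gene to both others at ratios of 13.3 to 14.6, while the loops below, from the ES list with a counterpart in both lens lists (blue) and from lens epithelium (green), run from Shh to places short of Mnx1 at ratios of 2.58 to 4.18.

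Pax6, the master regulator of eye development, was joined to Wt1, a gene of kidney and gonad, by an ES-only loop of 545 kb (31 contacts against 2.29, ratio 13.6, no lens CTCF at either anchor). This was the sole ES loop over Wt1, and no lens loop had an anchor there. Pax6 itself had 4 loops in lens epithelium and 3 in fiber cells. All but a loop of 50 kb, which the 3 cell types shared, ran to the other side of the gene, into Elp4 or Dcdc5. The longest was of 500 kb in the epithelium (110 contacts, ratio 2.48) and of 525 kb in fiber cells (137 contacts, ratio 2.14).
Meis2, a homeobox gene that acts with Pax6, had 3 ES-only loops. The strongest, of 490 kb, had 47 contacts against 3.36 (ratio 13.97), and the others were of 270 kb (ratio 2.77) and 2650 kb (ratio 6.16). The loop over the gene itself, of 205 kb, was in both lens lists, with 120 contacts against 13.2 in ES cells (ratio 9.12) and 26 against 5.34 in lens epithelium (ratio 4.87). Lens epithelium had 4 more loops at Meis2, of 550 to 1425 kb, with ratios of 2.08 to 2.55.

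At Wnt5a, ES-only loops of 440 kb (ratio 2.92), 550 kb (ratio 2.98) and 1215 kb stood beside lens loops of 425 to 925 kb, all but the 690 and 700 kb ones with ratios below 2.90. All 3 ES-only loops and all 7 lens loops ended in the neighbouring Erc2 or Cacna2d3. Lhx1 had 5 ES-only loops among 6 ES loops, of 110 to 2150 kb, among them loops to Tmem132e, to Tbx2, to Tbx4 (1370 kb, 33 contacts, ratio 7.95) and to a place near by without a protein-coding gene. Lens fiber cells had 3 loops at Lhx1, of 200 to 275 kb and with ratios of 1.79 to 2.06, and lens epithelium none.
Tbx1, a T-box gene of the pharyngeal arches, had 3 ES loops, all ES-only, to Scarf2 over 785 kb (26 contacts, ratio 10.4), over 2650 kb (ratio 6.32) and over 35 kb to Septin5 and Gp1bb (93 contacts, ratio 3.60). In lens, fiber cells had 1 loop there, of 120 kb (ratio 2.24). Runx2, the regulator of bone formation, had 3 ES-only loops of 300 to 625 kb, the strongest with 26 contacts into Supt3 (ratio 7.21). It also had an ES loop of 480 kb in both lens lists (ratio 5.92), and 2 loops in each lens list, of 280 to 475 kb (ratios 1.99 to 3.63). At the gamma-crystallin genes, which encode the main proteins of lens fibers, a weak ES-only loop of 130 kb ran from an anchor with an end of Cryge to Idh1 (68 contacts against 26.1, ratio 2.61). A loop of 440 kb ran from Fzd5 to Idh1 (17 contacts against 4.15, ratio 4.09, lens CTCF at both anchors). Both loops reached across the genes. No lens loop had an anchor over the genes.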

How the data were processed

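Hi-C of ES cells and of both lens cell types (2 replicates each) and lens CTCF ChIP-seq (1 labelled sample per lens cell type) were used as deposited, on mm10 per the labels. The submitters' processing notes name BWA, Juicer and MACS2. The study's methods state that replicates were merged, loops called with HiCCUPS and TADs with Arrowhead, and the file headers give juicer_tools 2.13.06. The observed value of a deposited loop is a count of contacts in the merged map. Its expected value is a score made by the authors' caller from the surroundings, and its false discovery rate is a q-value from the authors' caller. For the deposited peaks the authors' fold enrichment was used, and their −log10 q-value for a stricter alternative.

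Loops, peaks, TADs and genes were matched in Python (3.11.15) with pandas (2.3.3), numpy (2.4.6) and scipy (1.17.1), and figures were made with matplotlib (3.10.9). The matching was tested on simulated data. Size is the distance between anchor midpoints, and a peak or gene end counted when inside an anchor as listed. Genes are those of RefSeq GRCm38.p6, and both ends of a gene were used because the gene table was read without strand. The table of promoters holds no chromosome 18.

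Named genes are those at the 10 strongest and 5 longest loops (the fifth, among ties, by its ratio) and the 5 busiest sites, up to 6 genes per list by their strongest loop, and a fixed set of loci. Pairs with a regulator at both anchors, Foxa2 among the busiest sites and the ratio limit of 8 were chosen after values were seen. Forkhead genes were taken as Fox with a letter and a number. The members and lists were chosen with earlier results of these data known. Some genes that the rule selects are not reported here. No test was made. Alternatives changed the matching distance, anchor width, false discovery rate, pixels, size limit, chromosomes, peak lists and windows. Map depth and expression were not analysed here, so precision is given as counting intervals.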

Additional observations from a re-analysis of the deposited data

How the results depend on the processing

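The share of ES loops that were ES-only was 44.7%. It was 55.04% with counterparts within 10 kb, 38.3% within 50 kb, 64.4% where both anchors had to overlap, 35.7%, 50.6% and 52.3% at anchors of 5, 10 and 25 kb, and 37.0% for loops of at least 2 pixels. The share of ES-only loops with lens CTCF at both anchors was 24.9%. It was 26.9% with counterparts within 10 kb, 23.3% within 50 kb, 22.4% and 29.4% at anchors of 5 and 25 kb, and 22.3% for at least 2 pixels. With fiber peaks alone it was 21.3%, with epithelium peaks alone 9.72%, with peaks in both lists 6.91% and in windows of 25 kb 39.5%. The median size of 200 kb became 210 kb within 10 kb, 90 and 475 kb at anchors of 5 and 25 kb, and 170 kb for at least 2 pixels. The ratio of CTCF shares stayed below 1 in all 9 alternatives, at 0.464 for 5 kb anchors, 0.466 below 100 kb, 0.568 from 100 to 300 kb, and 0.623, 0.607 and 0.360 in loops of low, middle and high contact ratio (equal parts of the list). Both anchors lay at lens loop anchors in 14.5% within 10 kb. ES-only loops lay inside 1 TAD in 18.5% and 21.0% with the epithelium and fiber lists, and had a gene end at an anchor in 48.9% with protein-coding genes and 87.3% in windows of 25 kb. Chosen after seeing the data, 1 strong loop per anchor site gave a developmental regulator in 29.8%, and a ratio above 6 gave 30.2%. The share of strong loops with no lens CTCF stayed between 60.4% and 70.2%. A false discovery rate below 0.01, a size limit of 2 or 1 Mb and adding X moved no share or median size beyond its spread. The causes were not tested. Replicates could not be left out. No paired analysis was possible because the replicates were merged into 1 list per cell type.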

Other observations

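The X chromosome was outside the rule. It held 247 ES loops up to 3 Mb, of which 157 (63.6%, Wilson 95% interval 57.4 to 69.3%) had no counterpart in either lens list. Among chromosomes 1 to 19 the highest share was 51.5%, on chromosome 5. The ES cells were male and the sex of the newborn mice is not given, so the share on X was not matched for sex. The median size of the 157 loops was 125 kb. No lens CTCF peak lay at either anchor in 82 of the 157 (52.2%) and at both anchors in 17 (10.8%).

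Smarca2, at the tenth strongest ES-only loop, was 1 of the 17 sites with at least 5 ES-only loops. Its 5 loops spanned 610 to 2075 kb with contact ratios of 4.01 to 17.3, and among their partners were Foxd4 (1710 kb, 17 contacts, ratio 12.2) and Dmrt2 (935 kb, 29 contacts, ratio 11.5), a gene of somite patterning. Nrn1, which encodes a surface protein of neurons, was another, with 5 loops of 580 to 1425 kb and ratios up to 12.3. Neither site held a lens CTCF peak. Both genes were picked here after their values were seen.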
